A study of Mus musculus with 18 samples.

Results

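The comparison set 3 libraries of L2C mouse embryos against 3 libraries of E2C mouse embryos, all from the control arm (siCon) of an siRNA experiment, and covered every gene in the files. These 6 libraries were all those with siCon in their titles, out of 18 libraries in the series, and were chosen from the titles alone. The series also holds 2 DMSO control libraries of E2C embryos, which are not part of the comparison. The series asks what histone crotonylation does in early mouse embryos, and its other siRNA arm is directed at Echs1. Both groups carried the control siRNA, and the labels name only the embryo as tissue, with no strain, genotype, time or dose. The short names L2C and E2C, not spelled out in the labels, are read here as late and early 2-cell embryos. The 2-cell markers Zscan4c, Zscan4d, Zfp352 and Tcstv3 were present in all 6 libraries, at 25.9 FPKM or more. Each library was made from a tube of 5 to 10 embryos by Smart-seq2, which primes polyadenylated RNA with oligo-dT, copies it at full length and amplifies it by PCR, so each value is a mean over pooled embryos. Nothing in the labels says that replicates came from separate mice or days, so the p-values measure only the spread between these tubes, which may be technical.

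A fertilised mouse egg starts with RNA stored by the oocyte. A minor wave of transcription begins in the zygote and the early 2-cell embryo, and the major wave of zygotic genome activation follows in the late 2-cell embryo, while much of the maternal RNA is deadenylated and degraded. Genes transcribed in the major wave are known to include those for ribosome assembly, RNA processing and housekeeping metabolism, and a group of 2-cell genes, such as the Zscan4 cluster, is transcribed only briefly around this stage.

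Values are FPKM, which divide a gene's fragments by the length of its exons and by the library's mapped fragments, and were compared as log2(FPKM + 1), so the fold changes of low genes are understated. Of 15610 genes that reached 1 FPKM in 3 or more of the 6 libraries, 9911 (63.5%) differed between the stages at an adjusted p under 0.05 by limma, with 6798 (43.5%) higher and 3113 (19.9%) lower at L2C. The number of genes changed at least 2-fold was 6164 upwards and 2649 downwards. At 16-fold or more, 281 genes were higher and 82 were lower. The L2C and E2C libraries did not overlap for 10540 genes (67.5%), and the median log2 fold change of all tested genes was 0.58. Because FPKM is relative within a library, a change in the total RNA of an embryo is not seen, and fewer cells of a type and less RNA per cell cannot be told apart.

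The split between rising and falling genes depended on the scaling: 68.6% of the called genes were higher as deposited, against 50% after quantile normalization (4663 and 4663 genes, median 0.01), 76.1% after rescaling without mitochondrial and ribosomal RNA (7792 and 2442 genes, median 0.87) and 78.1% after rescaling all libraries to the same FPKM total (8036 and 2254 genes, median 0.94). None of the 9911 genes was called in the opposite direction under these 3 scalings, and gene groups are therefore read below against the median of all tested genes. Totals of FPKM were 740523, 807172 and 835497 in the L2C libraries and 1006345, 1110874 and 1123993 in the E2C libraries. The 100 most abundant genes took 29.5 to 32.7% of the total at L2C and 49.0 to 52.5% at E2C. Between 15096 and 16703 genes reached 1 FPKM at L2C, against 13378 to 13950 at E2C. Rank correlations across genes were 0.861 to 0.895 among the L2C libraries, 0.902 to 0.915 among the E2C libraries and 0.576 to 0.651 between the stages.

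**Figure D1:**
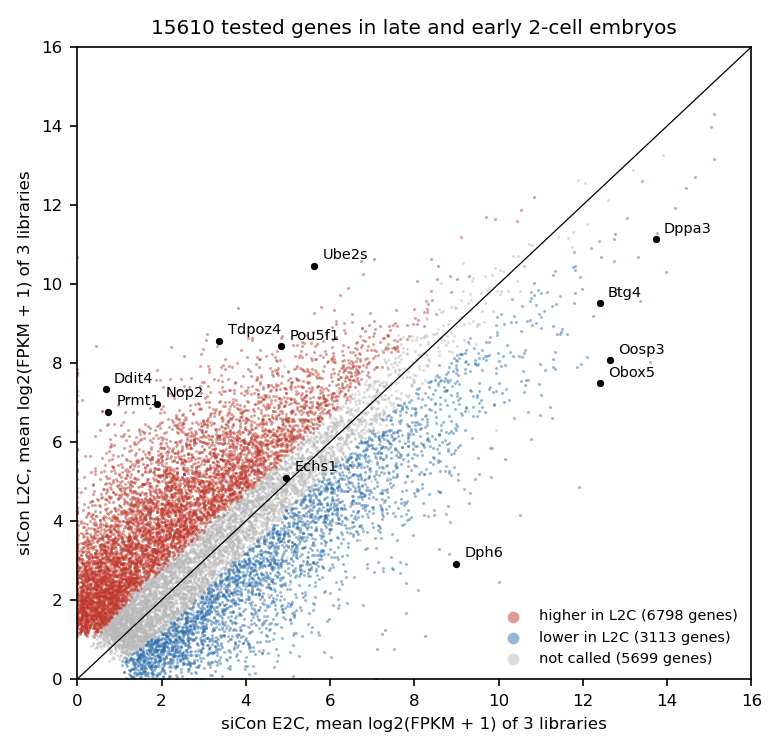
Mean level of each tested gene in the 3 siCon L2C libraries (vertical axis) against the 3 siCon E2C libraries (horizontal axis), both as log2(FPKM + 1), with called genes coloured by direction. Of 15610 genes, 6798 lay higher and 3113 lower at L2C, and the falling genes reach the highest levels at E2C.

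The siCon L2C libraries held abundant transcripts of genes that were nearly silent in the siCon E2C libraries. Ddit4, an inhibitor of mTORC1 signalling that is induced by stress, had 174, 109 and 220.2 FPKM at L2C, against 0.30, 0.77 and 0.77 FPKM at E2C (log2 fold change 6.67 ± 0.33 SE, adjusted p = 1.35e-07). Prmt1, the main enzyme for asymmetric dimethylation of arginine, had 151, 74.9 and 112 FPKM at L2C, against 0.92, 0.58 and 0.50 FPKM at E2C (log2 fold change 6.04 ± 0.33 SE, adjusted p = 2.07e-07). The 10 largest changes per direction were picked among called genes whose L2C and E2C libraries do not overlap. Their separation is thus a condition of the choice. Sesn2, a leucine sensor that restrains mTORC1, had 128, 113 and 181 FPKM at L2C, against 1.38, 1.36 and 1.15 FPKM at E2C (log2 fold change 5.92 ± 0.29 SE, adjusted p = 1.35e-07). Rac3, a small GTPase, had 339.5, 222 and 149 FPKM at L2C, against 3.92, 2.61 and 1.86 FPKM at E2C (log2 fold change 5.92 ± 0.35 SE, adjusted p = 4.01e-07). Snai1, a repressor of transcription known from epithelial-mesenchymal transition, had 129.8, 208 and 258 FPKM at L2C, against 3.76, 1.8 and 2.57 FPKM at E2C (log2 fold change 5.73 ± 0.33 SE, adjusted p = 3.57e-07). The groups of these 3 genes were apart by that same choice. Socs3, a feedback inhibitor of cytokine receptors, had 85.6, 88.4 and 84.4 FPKM at L2C, against 0.85, 0.53 and 0.59 FPKM at E2C, with the L2C libraries close to each other (log2 fold change 5.72 ± 0.28 SE, adjusted p = 1.34e-07). Mta2, a subunit of the NuRD remodelling complex, had 149, 155 and 288 FPKM at L2C, against 2.55, 2.92 and 3.25 FPKM at E2C (log2 fold change 5.60 ± 0.31 SE, adjusted p = 2.85e-07). The other genes among the 10 largest rises were Ppp1r37 (5.76), which encodes an inhibitor of protein phosphatase 1, Cidea (5.71), a lipid droplet protein, and Impdh1 (5.71), which encodes an enzyme of guanine nucleotide synthesis. Cidea was the most uneven of them, at 33.7, 95.3 and 105 FPKM at L2C, against 0.19, 0.050 and 0.95 FPKM at E2C. The DMSO control libraries of E2C held more Ddit4 (8.9 and 8.19 FPKM) and Rac3 (23.7 and 14.95 FPKM) than any siCon E2C library. Sesn2 (1.14 and 0.72 FPKM), Socs3 (0.27 and 0.65 FPKM) and Mta2 (1.24 and 1.2 FPKM) were low there too.

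The largest falls included 4 Obox genes and Oosp3, which are known as oocyte genes. Obox5, one of the oocyte-specific homeobox genes clustered on chromosome 7, had 223, 183 and 143 FPKM at L2C, against 5405, 5114 and 5756 FPKM at E2C (log2 fold change -4.91 ± 0.26 SE, adjusted p = 1.83e-07). Its relative Obox1 had 105, 139.8 and 61.7 FPKM at L2C, against 2334, 2378 and 2651 FPKM at E2C (log2 fold change -4.65 ± 0.31 SE, adjusted p = 7.67e-07). Obox2 (-4.38) and Obox7 (-4.57) fell as well, and reads of these near-identical genes can be split between them. Oosp3, an oocyte-secreted protein gene, had 336, 323 and 175 FPKM at L2C, against 6279, 4819.9 and 8531 FPKM at E2C (log2 fold change -4.57 ± 0.32 SE, adjusted p = 9.33e-07). L2C libraries held no more than 336 FPKM of it, while the lowest E2C library held 4820 FPKM. Sec61g, which encodes a subunit of the translocon of the endoplasmic reticulum, had 19.9, 24.8 and 18.95 FPKM at L2C, against 529, 698 and 681 FPKM at E2C (log2 fold change -4.84 ± 0.26 SE, adjusted p = 2.07e-07). Apoo, which encodes a protein of mitochondrial cristae junctions, had 29.2, 31.9 and 17.3 FPKM at L2C, against 517, 659 and 749 FPKM at E2C (log2 fold change -4.60 ± 0.30 SE, adjusted p = 6.82e-07). Ifitm6 (-4.58), an interferon-induced transmembrane gene, and Hist1h4a (-4.37), a histone H4 gene, completed the 10 together with Dph6. Dph6, which acts in diphthamide synthesis, had the largest fold change and also the widest scatter, with 1.3, 37.6 and 3.92 FPKM at L2C, against 388, 869.7 and 396 FPKM at E2C (log2 fold change -6.08 ± 1.10 SE, adjusted p = 0.00442). In the DMSO control libraries of E2C, Dph6 was at only 7.06 and 6.17 FPKM. The others of the 10 lay there above every siCon L2C library and below every siCon E2C library. Obox5 was at 733 and 700 FPKM, Obox1 at 517 and 546 FPKM, Sec61g at 117 and 158 FPKM, and Oosp3 at 3603 and 3399 FPKM. The falls from these libraries would thus be smaller.

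**Figure D2:**
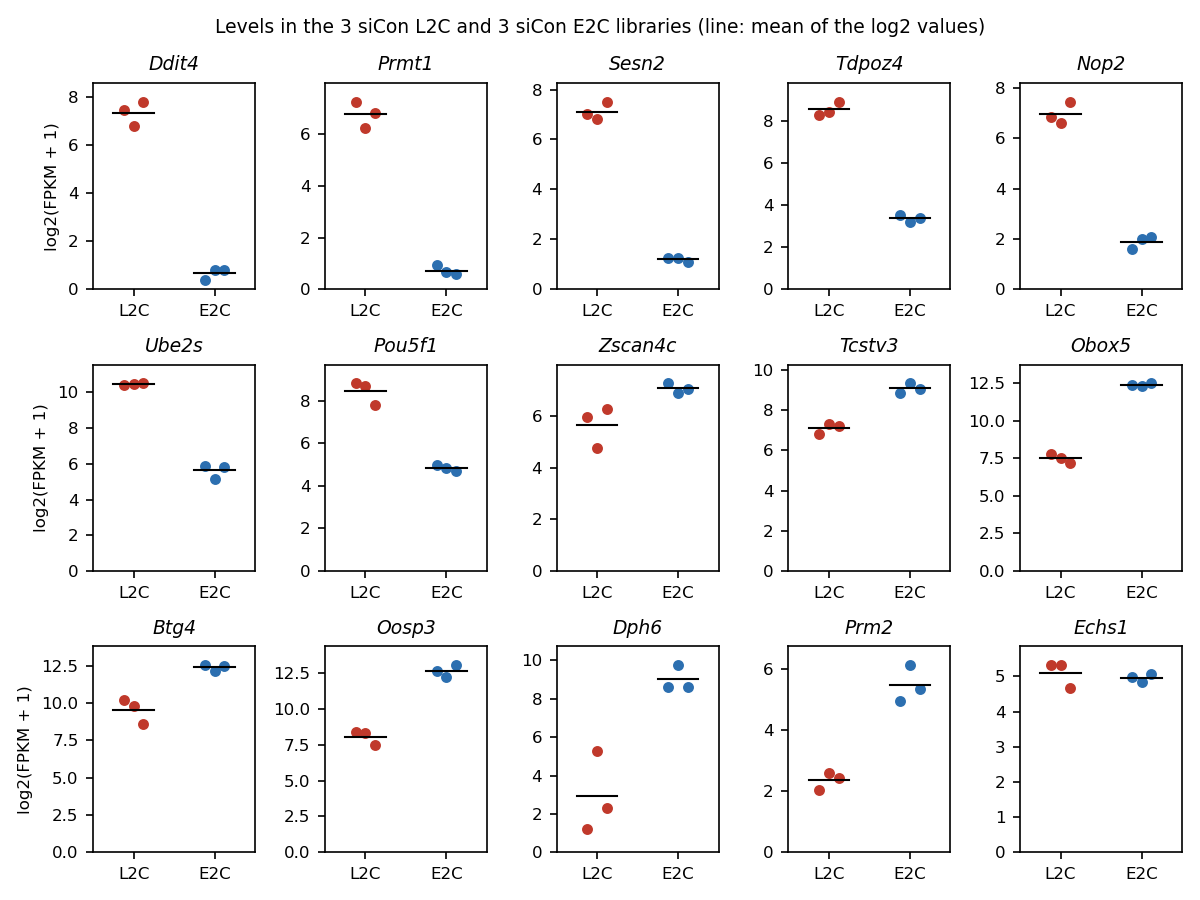
FPKM of single genes in each siCon L2C library and each siCon E2C library, as log2(FPKM + 1), with 1 point per library and a line at the group mean. Ddit4, Prmt1 and Nop2 stand above their E2C values in all 3 L2C libraries, and Obox5, Oosp3 and Btg4 stand below them.

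The promoters of 3 strongly rising and 3 strongly falling genes are shown to compare their base composition: Ddit4, Prmt1 and the ribosome assembly gene Nop2 against Obox5, Obox1 and the deadenylation gene Btg4. These promoters were picked as examples, and those of the related genes Obox5 and Obox1 are much alike. Each runs from 250 bases before to 50 bases after the gene's start in RefSeq on build GRCm38.p6, at chr10:59951721-59952020 on the minus strand for Ddit4, chr7:44986371-44986670 on the minus strand for Prmt1, chr6:125131633-125131932 on the plus strand for Nop2, chr7:15750120-15750419 on the plus strand for Obox5, chr7:15547007-15547306 on the plus strand for Obox1, and chr9:51115751-51116050 on the plus strand for Btg4. Capitals mark GGGCGG or its complement CCGCCC, the core of the GC box.
Ddit4: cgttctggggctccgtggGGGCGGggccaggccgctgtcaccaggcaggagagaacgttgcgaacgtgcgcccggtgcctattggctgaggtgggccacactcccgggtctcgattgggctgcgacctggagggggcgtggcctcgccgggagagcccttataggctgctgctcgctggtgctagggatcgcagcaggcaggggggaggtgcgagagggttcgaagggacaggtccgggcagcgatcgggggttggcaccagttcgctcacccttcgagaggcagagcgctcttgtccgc
Prmt1: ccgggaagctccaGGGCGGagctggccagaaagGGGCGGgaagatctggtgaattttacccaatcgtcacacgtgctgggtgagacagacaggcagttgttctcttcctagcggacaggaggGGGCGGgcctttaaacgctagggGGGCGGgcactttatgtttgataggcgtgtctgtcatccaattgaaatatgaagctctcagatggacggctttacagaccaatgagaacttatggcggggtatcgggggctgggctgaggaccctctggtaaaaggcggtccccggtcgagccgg
Nop2: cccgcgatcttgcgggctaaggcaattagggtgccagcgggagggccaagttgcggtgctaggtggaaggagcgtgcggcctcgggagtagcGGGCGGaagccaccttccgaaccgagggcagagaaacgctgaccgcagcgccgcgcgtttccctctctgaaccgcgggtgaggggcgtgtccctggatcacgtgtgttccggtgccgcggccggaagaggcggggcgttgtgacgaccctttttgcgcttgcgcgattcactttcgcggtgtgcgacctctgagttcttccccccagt
Obox5: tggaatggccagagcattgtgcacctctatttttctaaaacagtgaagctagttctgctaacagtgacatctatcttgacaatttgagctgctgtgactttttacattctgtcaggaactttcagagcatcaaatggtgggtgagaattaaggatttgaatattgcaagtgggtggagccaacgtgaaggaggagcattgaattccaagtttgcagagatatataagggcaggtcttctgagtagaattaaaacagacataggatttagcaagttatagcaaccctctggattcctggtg
Obox1: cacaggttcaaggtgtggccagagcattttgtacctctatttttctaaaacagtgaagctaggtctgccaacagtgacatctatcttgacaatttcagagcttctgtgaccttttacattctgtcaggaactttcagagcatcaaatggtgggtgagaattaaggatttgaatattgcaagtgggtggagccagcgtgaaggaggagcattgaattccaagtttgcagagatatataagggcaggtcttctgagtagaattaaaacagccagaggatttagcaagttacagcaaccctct
Btg4: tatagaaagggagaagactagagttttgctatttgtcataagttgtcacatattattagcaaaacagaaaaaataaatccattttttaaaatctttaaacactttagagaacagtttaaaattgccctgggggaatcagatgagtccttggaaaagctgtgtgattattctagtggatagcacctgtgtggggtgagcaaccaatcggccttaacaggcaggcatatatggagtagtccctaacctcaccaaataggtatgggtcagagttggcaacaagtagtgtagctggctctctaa

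The GC box letters occurred once in the Ddit4 and Nop2 windows, 4 times in the Prmt1 window and in none of the 3 others. The windows held 69.0% G and C with 26 CpG for Ddit4, 57.7% with 17 CpG for Prmt1 and 66.0% with 35 CpG for Nop2. Obox5 had 41.0%, Obox1 had 42.3% and Btg4 had 39.0%, each with 1 CpG. These examples differ more than the groups do. The median window held 61% G and C for genes at least 2-fold higher and 55.7% for those at least 2-fold lower. CACGTG, the E-box bound by factors such as Myc, was found in the Prmt1 and Nop2 windows. Across promoters of genes at least 2-fold higher at L2C, 67.8% held GGGCGG on either strand, against 46.4% of those at least 2-fold lower, 59.8% of those tested and 35.9% of all 27025 windows. TATAAA on either strand was found in 6.56% of the windows of the higher genes and 10.9% of those of the lower genes, against 7.69% of those tested and 14.2% of all windows. CACGTG was found in 10.5% of the windows of the higher genes and 7.50% of those of the lower genes, against 9.79% of those tested and 7.24% of all windows. A promoter was matched by symbol for only 66.4% of the tested genes, so a check over gene sets is void and these shares describe the matched genes only. These letters may overlap other motifs, and a match is no evidence of binding.

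Base composition also ran through the transcripts themselves. The protein-coding genes were divided into 5 groups of equal size by the G and C content of their exons. In the lowest group (31.0 to 43.5% G and C), 21.02% of genes were higher and 33.0% lower at L2C, with a median log2 fold change of -0.22. In the highest group (55.1 to 74.2%), 77.6% were higher and 5.01% lower, with a median of 1.85. The medians of the groups between were 0.17, 0.64 and 1.22, so the change grew with each step. At L2C the median level differed little between the outer groups, at 14.1, 12.7 and 11.03 FPKM in the lowest and 11.8, 12.6 and 9.75 FPKM in the highest. At E2C it was 14.5, 13.04 and 13.7 FPKM in the lowest group, against 2.06, 1.79 and 1.82 FPKM in the highest. GC-rich transcripts were thus low in all 3 E2C libraries. The part of base composition in the results was not tested other than by removing each library's trend with it. After removing each library's trend with GC content, 9114 genes were called (6603 higher, 2511 lower, 72.5% higher). Of the 9911 genes, 7474 were still called with the same sign and 4 were called with the opposite sign, while 289 changed sign with or without a call. Counts after removing this trend are given below for each group in which the number of genes higher or lower moved by 5 or more, and for some others.

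**Figure D3:**
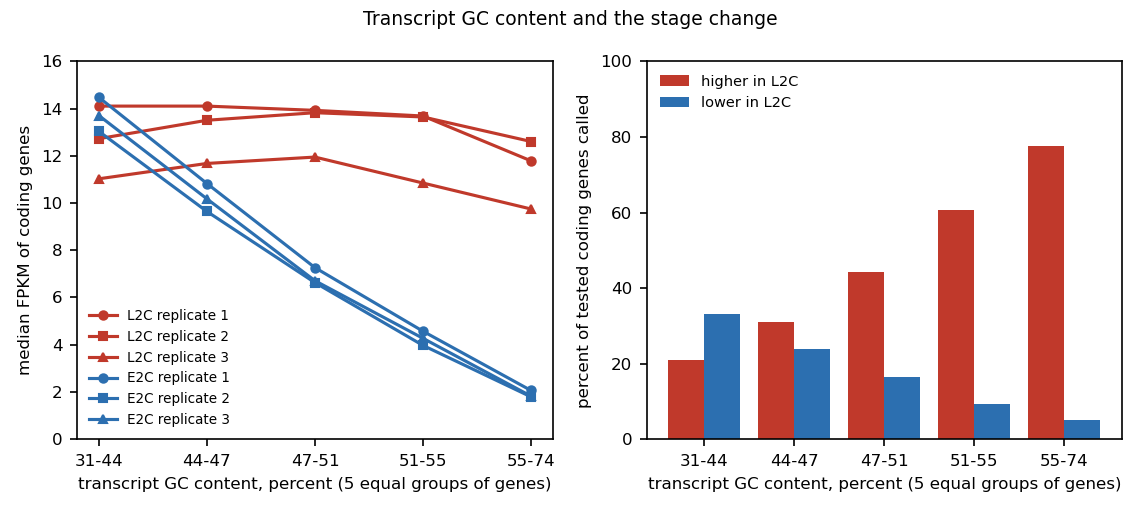
Stage change of protein-coding genes in 5 groups by transcript G and C content: share of genes higher and lower at L2C, and median level in each library (FPKM). The share higher at L2C goes from 21.02% in the lowest group to 77.6% in the highest, and median levels at E2C are near 2 FPKM in the highest group.

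Known regulators of genome activation mostly rose, apart from 4 Obox genes. Of 28 tested genes, 20 were higher and 4 lower, with a median log2 fold change of 1.65 beside 0.58 for all genes. The 4 that fell were Obox1, Obox2, Obox5 and Obox7. Summed over the list, which includes these 4, 2715 to 4293.5 FPKM were measured at L2C and 9850 to 10636 FPKM at E2C. Obox8 rose (2.43), and so did Obox6, which is kept with the transient genes below, with 422, 277 and 613 FPKM at L2C, against 143, 213 and 149.5 FPKM at E2C (log2 fold change 1.32 ± 0.32 SE, adjusted p = 0.00373). Nr5a2, an orphan nuclear receptor that binds at activated genes in the 2-cell embryo, had 47.4, 59.8 and 85.9 FPKM at L2C, against 8.69, 9.32 and 9.18 FPKM at E2C (log2 fold change 2.66 ± 0.29 SE, adjusted p = 1.50e-05). Klf17, a factor of the Krüppel-like family, had 323, 232 and 331 FPKM at L2C, against 76.2, 75.8 and 83.8 FPKM at E2C (log2 fold change 1.88 ± 0.26 SE, adjusted p = 7.29e-05). All 3 rose in every L2C library over every E2C library. Klf5, of the same family, had 48.2, 42.5 and 38.3 FPKM at L2C, against 3.21, 2.46 and 2.61 FPKM at E2C (log2 fold change 3.55 ± 0.28 SE, adjusted p = 1.79e-06). Tfap2c, a factor of the AP-2 family, had 45.3, 66.4 and 46.1 FPKM at L2C, against 4.7, 3.46 and 3.6 FPKM at E2C (log2 fold change 3.43 ± 0.29 SE, adjusted p = 2.65e-06). Dppa2, an activator of Dux, had 104, 71.2 and 169 FPKM at L2C, against 76.2, 82.1 and 88.03 FPKM at E2C and was not called (log2 fold change 0.39 ± 0.32 SE, adjusted p = 0.304). With the GC trend removed Dppa2 was called higher (1.08, adjusted p = 0.0118), while Obox6 lost its call when all 12 siRNA libraries were fitted together (adjusted p = 0.123). Duxf3, the Dux gene itself, was at 2.19, 3.42 and 0.52 FPKM at L2C, against 0.33, 0.54 and 0.42 FPKM at E2C and did not pass the filter, so it has no test.

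The genes transcribed briefly at the 2-cell stage did not move together. Of 55 tested, 22 were higher, 14 lower and 19 not called, with a median of 0.48 beside 0.58 for all genes. These shares, 40% higher and 25.45% lower, lay near the 43.5% and 19.9% of all tested genes. After removal of the GC trend 30 were higher and 10 lower, with a median of 1.08. The Tdpoz genes, which encode proteins with a POZ domain and lie together on chromosome 3, rose. Tdpoz4 had 318, 348 and 487 FPKM at L2C, against 10.5, 8.24 and 9.55 FPKM at E2C (log2 fold change 5.19 ± 0.27 SE, adjusted p = 1.81e-07), and Tdpoz3 and Tdpoz5 had log2 fold changes of 3.0 and 3.0. A run of 12 neighbouring tested protein-coding genes at chr3:93669333-94266784 (GRCm38), which holds this cluster, was higher throughout. BC080695 had 168, 138 and 216 FPKM at L2C, against 14.01, 16.6 and 19.6 FPKM at E2C (log2 fold change 3.29 ± 0.28 SE, adjusted p = 2.52e-06), and Tmem92 had 154, 357 and 242 FPKM at L2C, against 17.9, 19.99 and 18.9 FPKM at E2C (log2 fold change 3.58 ± 0.32 SE, adjusted p = 3.46e-06). The Zscan4 and Tcstv genes were already present at E2C. Tcstv3 had 112, 159 and 145 FPKM at L2C, against 466, 649.8 and 529.7 FPKM at E2C (log2 fold change -1.98 ± 0.27 SE, adjusted p = 6.02e-05). The DMSO control libraries of E2C held 52.9 and 39.2 FPKM of Tcstv3 and 37.6 and 8.48 FPKM of Zscan4d. For both genes these values lay below every siCon L2C library. Zscan4c had 60.4, 25.9 and 76.9 FPKM at L2C, against 152, 119 and 131 FPKM at E2C (log2 fold change -1.41 ± 0.37 SE, adjusted p = 0.00549), and its call was lost with the GC trend removed (-0.65, adjusted p = 0.145). Zscan4d, at 102, 67.2 and 67.03 FPKM at L2C, against 128, 107 and 137 FPKM at E2C, was near the threshold (log2 fold change -0.67 ± 0.27 SE, adjusted p = 0.0484) and had a log2 fold change of 0.10 with the GC trend removed. Zscan4f (-2.26) and Zscan4a (-2.21) fell further, although these copies share reads. Zfp352, a zinc finger gene at 148, 209.8 and 204 FPKM at L2C, against 117, 148 and 135 FPKM at E2C, was not called (log2 fold change 0.48 ± 0.26 SE, adjusted p = 0.133). Usp17le, a deubiquitinase gene of a multi-copy family, rose slightly at 15.2, 8.3 and 3.76 FPKM at L2C, against 5.37, 2.35 and 1.88 FPKM at E2C (log2 fold change 1.18 ± 0.47 SE, adjusted p = 0.0441), and Eif1ax, a gene of the initiation factor eIF1A, fell at 14.8, 34.7 and 20.2 FPKM at L2C, against 34.5, 54.6 and 48.2 FPKM at E2C (log2 fold change -1.01 ± 0.34 SE, adjusted p = 0.0213). The calls of Zscan4d, Usp17le and Eif1ax were each lost when single libraries were left out, with adjusted p as high as 0.169 for Zscan4d, 0.179 for Usp17le and 0.089 for Eif1ax. With the GC trend removed Zfp352 was called higher (1.12, adjusted p = 0.00373) and Eif1ax was not called (-0.09, adjusted p = 0.83).

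Oocyte and maternal-effect genes fell as a group. Of 79 tested, 48 were lower and 9 higher, with a median of -1.28 beside 0.58 for all genes. Summed over the list, 36190 to 49234 FPKM were measured at L2C and 132999 to 144762 FPKM at E2C. After removal of the GC trend the counts were 44 lower and 7 higher. Ooep, a component of the subcortical maternal complex, had 30.5, 30.3 and 45.3 FPKM at L2C, against 426, 455 and 531 FPKM at E2C (log2 fold change -3.72 ± 0.27 SE, adjusted p = 1.06e-06). Nlrp4a, of the NLR family expressed in oocytes, had 21.2, 17.4 and 17.3 FPKM at L2C, against 263, 193 and 244 FPKM at E2C (log2 fold change -3.57 ± 0.26 SE, adjusted p = 1.08e-06). Both were lower in all L2C libraries by more than the spread within either group. Oosp2 (-4.34), Rfpl4 (-4.31), Nlrp4f (-3.78) and the nucleoplasmin gene Npm2 (-2.84) fell too. The fall was not uniform. Gdf9, an oocyte growth factor, had 236, 211 and 188 FPKM at L2C, against 207, 179 and 196 FPKM at E2C and was not called (log2 fold change 0.13 ± 0.25 SE, adjusted p = 0.675). Mos, a kinase of meiotic arrest, stood at 4.03, 6.25 and 6.26 FPKM at L2C, against 4.8, 5.89 and 5.96 FPKM at E2C (log2 fold change -0.02 ± 0.31 SE, adjusted p = 0.952). Zp3, a zona pellucida glycoprotein gene, was higher at L2C, with 44.8, 70.8 and 93.7 FPKM at L2C, against 36.3, 36.7 and 27.99 FPKM at E2C (log2 fold change 0.98 ± 0.31 SE, adjusted p = 0.016), a call lost with the GC trend removed (0.05, adjusted p = 0.9), after quantile normalization (adjusted p = 0.212) and without the third E2C library (adjusted p = 0.0719). Astl (2.26), the ovastacin gene, and Padi6 (2.04) and Tle6 (1.28), whose products belong to or act with the maternal complex, were also higher.

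Factors of mRNA decay and storage gave 24 higher and 7 lower genes of 55, with a median of 0.43 beside 0.58 for all genes, and after quantile normalization the median was -0.10. The shares, 43.6% higher and 12.7% lower, are set against 43.5% and 19.9% of all tested genes, so the share higher was that of all genes. Btg4, the adaptor that recruits the CCR4-NOT deadenylase to maternal mRNA, had 1193, 876 and 379.8 FPKM at L2C, against 6055, 4491 and 5778 FPKM at E2C (log2 fold change -2.88 ± 0.38 SE, adjusted p = 6.51e-05). Its L2C values were spread, and all lay below the lowest E2C value. Pan3 (-2.64) of the PAN2-PAN3 deadenylase and Cnot7 (-0.90), a catalytic subunit of CCR4-NOT, fell as well. Ythdf1, a reader of m6A, had 96.98, 64.8 and 68.7 FPKM at L2C, against 3.81, 5.52 and 3.42 FPKM at E2C (log2 fold change 3.89 ± 0.30 SE, adjusted p = 1.46e-06). Smg5, of nonsense-mediated decay, had 38.7, 34.8 and 46.7 FPKM at L2C, against 2.43, 3.07 and 2.34 FPKM at E2C (log2 fold change 3.50 ± 0.29 SE, adjusted p = 2.15e-06). Pabpc1, the main cytoplasmic poly(A)-binding protein of somatic cells, had 215, 235 and 369 FPKM at L2C, against 24.2, 34.7 and 20.6 FPKM at E2C (log2 fold change 3.31 ± 0.31 SE, adjusted p = 4.50e-06). All 3 rose with no overlap between stages.

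Most factors of ribosome assembly rose. Of 116 tested factors, 90 were higher and 2 lower (Nol8, -1.11, and Gtpbp4, -0.95), with a median of 1.84 beside 0.58 for all genes. With the GC trend removed 94 were higher and none was called lower, and with quantile normalization 74 were higher and 2 lower. Nop2, an rRNA cytosine methyltransferase whose promoter is printed above, had 114, 97.1 and 175 FPKM at L2C, against 2.03, 3.04 and 3.21 FPKM at E2C (log2 fold change 5.08 ± 0.31 SE, adjusted p = 4.86e-07). Ddx54, an RNA helicase, had 44.2, 36.03 and 63.7 FPKM at L2C, against 0.56, 1.1 and 0.71 FPKM at E2C (log2 fold change 4.75 ± 0.32 SE, adjusted p = 7.97e-07). Rrp9, a protein of the U3 snoRNP, had 185, 148 and 225 FPKM at L2C, against 6.41, 8.31 and 5.72 FPKM at E2C (log2 fold change 4.58 ± 0.28 SE, adjusted p = 4.86e-07). E2C libraries held less than 10 FPKM of each. Fbl (4.11), the methyltransferase of box C/D particles, and Bop1 (3.91), of the PeBoW complex, also rose. Of the abundant nucleolar proteins nucleolin and nucleophosmin, Ncl rose, with 95.6, 154 and 139 FPKM at L2C, against 51.5, 59.4 and 52.5 FPKM at E2C (log2 fold change 1.21 ± 0.27 SE, adjusted p = 0.00223), while Npm1 had 800.4, 1066 and 1481 FPKM at L2C, against 1335, 1398 and 1448 FPKM at E2C and was not called (log2 fold change -0.37 ± 0.28 SE, adjusted p = 0.266). Without the third L2C library, the highest, Npm1 was called lower (-0.59, adjusted p = 0.0313). Myc, a transcription factor known as a regulator of ribosome assembly genes, had 24.9, 8.72 and 17.7 FPKM at L2C, against 1.7, 2.84 and 0.83 FPKM at E2C (log2 fold change 2.65 ± 0.42 SE, adjusted p = 2.01e-04).

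Of 80 cytosolic ribosomal protein genes, 47 were higher and 4 lower, with a median of 1.05, and 41 were higher and 6 lower with the GC trend removed. Summed, they took 21861, 28217 and 44225 FPKM at L2C and 12638, 20850 and 16693 FPKM at E2C. The L2C sums thus lay above the E2C sums, the nearest pair being 21861 and 20850 FPKM. Rpl8 had 290.4, 384 and 382 FPKM at L2C, against 35.4, 39.9 and 33.95 FPKM at E2C (log2 fold change 3.23 ± 0.26 SE, adjusted p = 1.71e-06), Rpl3 had 108 to 138 FPKM at L2C, against 17.5 to 23.8 FPKM at E2C (2.53) and Rpl13a had 427 to 689 FPKM at L2C, against 76.9 to 99.97 FPKM at E2C (2.53). The 4 that fell were Rpl29 (-1.25), Rpl26 (-1.14), Rps15a (-1.02) and Rps28 (-0.83). Ribosomal protein genes have many processed pseudogenes, and reads can be split between them. Translation factors gave 30 higher and 6 lower genes of 56 (median 0.90), or 37 higher and 2 lower with the GC trend removed. Eef2, the elongation factor that moves the ribosome along mRNA, had 152, 179.6 and 268 FPKM at L2C, against 8.07, 9.26 and 8.13 FPKM at E2C (log2 fold change 4.36 ± 0.29 SE, adjusted p = 6.97e-07). Eif3b, a scaffold subunit of eIF3, had 48.5 to 73.5 FPKM at L2C, against 2.68 to 4.2 FPKM at E2C (3.82), and Eif2b4, of the exchange factor for eIF2, had 97.4 to 166 FPKM at L2C, against 9.24 to 14.8 FPKM at E2C (3.30). Among 21 aminoacyl-tRNA synthetase genes 12 rose and 0 fell by limma (12 and 0 also at an unadjusted p under 0.05), with a median of 1.07, and 2 were lower after quantile normalization. Of those that rose, Qars (2.39), Aars (2.34) and Wars (2.05) had the smallest adjusted p. The DMSO control libraries of E2C held 18.8 and 18.1 FPKM of Wars, above every siCon L2C library (12.3 to 14.04 FPKM). Aars (1.93 and 2.17 FPKM) and Qars (64.9 and 69.9 FPKM) lay there below every siCon L2C library.

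**Figure D4:**
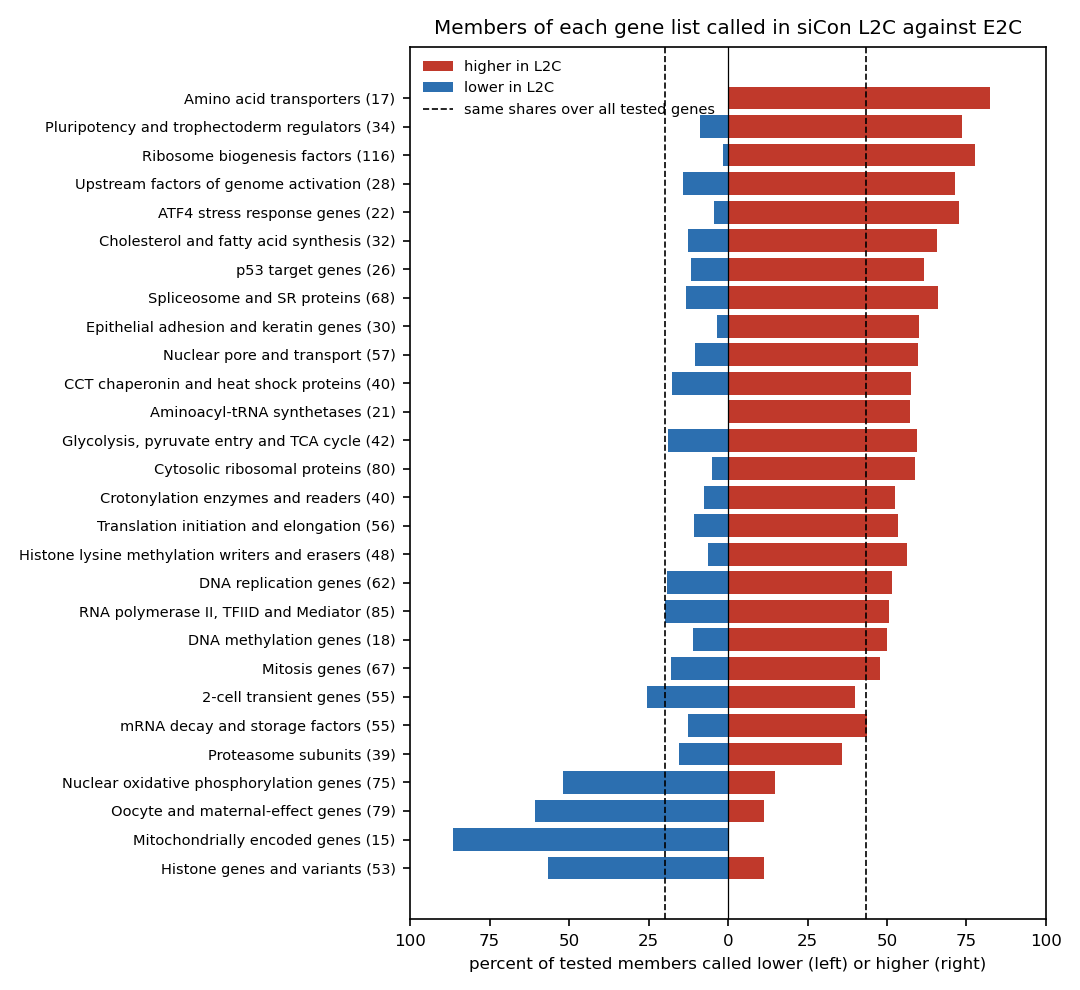
Share of tested genes of each list that were called higher and called lower at L2C against E2C in the siCon libraries, beside the shares over all tested genes. Ribosome assembly (90 of 116 higher) and amino acid transporters (14 of 17 higher) extend far to the right, and mitochondrially encoded genes (13 of 15 lower) and oocyte genes (48 of 79 lower) far to the left.

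Most genes of splicing and nuclear transport rose. Of 68 genes for spliceosomal and SR proteins, 45 were higher and 9 lower (median 1.35). Their summed level was nevertheless lower at L2C, at 7410 to 10852 FPKM, against 11218 to 13513 FPKM at E2C. U2af2, which recognises the polypyrimidine tract, had 70.4, 42.3 and 48.2 FPKM at L2C, against 1.93, 2.06 and 2.67 FPKM at E2C (log2 fold change 4.06 ± 0.31 SE, adjusted p = 1.32e-06). Hnrnpl, a splicing regulator, had 63.5 to 121 FPKM at L2C, against 3.72 to 6.26 FPKM at E2C (4.04). Snrpb2, a protein of the U2 particle, had 26.96, 34.8 and 27.3 FPKM at L2C, against 262, 258 and 367 FPKM at E2C (log2 fold change -3.26 ± 0.27 SE, adjusted p = 2.16e-06). It was joined among the falling genes by Snrpf (-3.46), Snrpe (-2.72), Snrpg (-2.03) and Snrpd1 (-1.84), which encode Sm proteins. The genes of the Sm ring were divided, since Snrpb (2.29) and Snrpd3 (1.28) rose and Snrpd2 was not called (-0.04, adjusted p = 0.93). Of 57 nuclear pore and transport genes, 34 were higher and 6 lower (median 1.27), or 39 higher and 5 lower with the GC trend removed, with Rcc1, the exchange factor of Ran, at 53.4 to 97.2 FPKM at L2C, against 1.53 to 2.97 FPKM at E2C (4.53), Rangap1 (3.72) and Ranbp3 (2.96) among those that rose. RNA polymerase II, its general factors and Mediator gave 43 higher and 17 lower genes of 85 (median 0.75). These shares, 50.6% higher and 20.0% lower, lay near the 43.5% and 19.9% of all tested genes. With the GC trend removed 49 were higher and 15 lower. The list summed to less at L2C, at 8577 to 10174 FPKM, against 12893 to 13726 FPKM at E2C. Cdk9, the kinase of P-TEFb that releases paused polymerase, had 194, 246 and 310 FPKM at L2C, against 7.68, 11.5 and 11.02 FPKM at E2C (log2 fold change 4.50 ± 0.29 SE, adjusted p = 6.61e-07). Hexim1, which holds P-TEFb inactive, had 38.7, 34.7 and 40.8 FPKM at L2C, against 0.89, 1.39 and 1.32 FPKM at E2C (log2 fold change 4.16 ± 0.29 SE, adjusted p = 9.22e-07). Gtf2f1, of TFIIF, had 221 to 268 FPKM at L2C, against 8.76 to 14.9 FPKM at E2C (4.21). Both the kinase and its inhibitor thus rose. Tbpl2, the oocyte paralogue of the TATA-binding protein, fell (-2.24), and so did Med30 (-3.58) and Med21 (-2.93).

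Protein folding and turnover were mixed. Chaperone genes gave 23 higher and 7 lower of 40 (median 1.18), or 57.5% and 17.5%, beside 43.5% and 19.9% of all tested genes. Hspa8, the constitutive HSP70, had 226, 299 and 341 FPKM at L2C, against 37.6, 70.9 and 64.8 FPKM at E2C (log2 fold change 2.33 ± 0.31 SE, adjusted p = 5.35e-05). Hspa5, the HSP70 of the endoplasmic reticulum, had 188 to 214 FPKM at L2C, against 26.1 to 30.8 FPKM at E2C (2.81), and Bag3, an HSP70 co-chaperone, had 34.9 to 52.9 FPKM at L2C, against 0.99 to 2.42 FPKM at E2C (4.26). Hspe1, the mitochondrial co-chaperonin, fell to 38.8 to 73.3 FPKM at L2C, against 419 to 538 FPKM at E2C (-3.19). Of 39 proteasome genes, 14 were higher and 6 lower (median 0.18, below that of all genes), and after quantile normalization 10 were higher and 10 lower. The proteasome shares, 35.9% higher and 15.4% lower, lay near those of all tested genes. Psmd3 (3.49) and Adrm1 (3.32), subunits of the regulatory particle, rose. Psmb2, a subunit of the core, had 73.7, 71.8 and 114 FPKM at L2C, against 466, 478 and 603 FPKM at E2C (log2 fold change -2.58 ± 0.28 SE, adjusted p = 1.27e-05).

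The enzymes and readers of histone crotonylation, the subject of the series, gave 21 higher and 3 lower genes of 40, with a median of 1.00 beside 0.58 for all genes. These shares, 52.5% higher and 7.5% lower, are set against 43.5% and 19.9% of all tested genes. After quantile normalization 14 were higher and 7 lower, with a median of 0.41 beside 0.01 for all genes. Echs1, the crotonyl-CoA hydratase targeted in the other arm, had 38.6, 39.2 and 24.4 FPKM at L2C, against 30.5, 27.5 and 32.5 FPKM at E2C in these control libraries and was not called (log2 fold change 0.14 ± 0.28 SE, adjusted p = 0.678). Hdac1, a class I deacetylase that also removes crotonyl groups, had 185, 179 and 249 FPKM at L2C, against 13.5, 15.7 and 20.4 FPKM at E2C (log2 fold change 3.55 ± 0.28 SE, adjusted p = 1.55e-06). Hdac3, another such enzyme, was low but higher at L2C, with 4.04, 3.33 and 2.75 FPKM at L2C, against 0.40, 1.08 and 1.28 FPKM at E2C (log2 fold change 1.21 ± 0.33 SE, adjusted p = 0.00684), a call lost after quantile normalization (adjusted p = 0.123). Dpf2, whose double PHD finger reads acylated lysine, had 49.3, 44.2 and 54.9 FPKM at L2C, against 3.92, 2.48 and 2.76 FPKM at E2C (log2 fold change 3.65 ± 0.29 SE, adjusted p = 1.71e-06). Brpf1, a scaffold of MOZ-type acetyltransferases, had 19.1 to 23.7 FPKM at L2C, against 1.6 to 2.02 FPKM at E2C (2.96). Ep300, which can write crotonylation, was at 14.6, 10.1 and 13.6 FPKM at L2C, against 10.01, 12.7 and 8.4 FPKM at E2C (log2 fold change 0.28 ± 0.30 SE, adjusted p = 0.436), and Cdyl, a crotonyl-CoA hydratase of chromatin, at 19.4, 17.1 and 13.9 FPKM at L2C, against 16.5, 12.01 and 16.2 FPKM at E2C (log2 fold change 0.16 ± 0.29 SE, adjusted p = 0.638). Sirt1, a deacylase, had 18.8 to 30.6 FPKM at L2C, against 12.7 to 21.5 FPKM at E2C (0.66, adjusted p = 0.0846). These 3 were not called, although Sirt1 was called higher with the GC trend removed (1.32, adjusted p = 0.00387). The members that fell were Acadm (-1.47), of fatty acid oxidation, Hat1 (-0.95) and Mllt3 (-0.87), the AF9 reader.

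Histone genes went the other way. Of 53 tested, 30 were lower and 6 higher, with a median of -1.56, and with the GC trend removed 37 were lower and 4 higher. Hist1h3f, an H3 gene, had 0.57, 0.96 and 0.62 FPKM at L2C, against 22.8, 25.6 and 28.2 FPKM at E2C (log2 fold change -3.95 ± 0.30 SE, adjusted p = 1.45e-06). Hist2h2bb, an H2B gene, had 1.82, 1.6 and 1.42 FPKM at L2C, against 42, 31.5 and 61.5 FPKM at E2C (log2 fold change -4.09 ± 0.32 SE, adjusted p = 1.71e-06). The L2C libraries held little of either. Most replication-dependent histone mRNAs lack a poly(A) tail in somatic cells, so an oligo-dT library counts only their polyadenylated part, and near-identical copies share reads. The variants H2afx (3.44), H1fx (3.06), H1f0 (2.27) and Cenpa (1.37) rose. Of 48 writers and erasers of histone lysine methylation, 27 were higher and 3 lower (median 0.88). Suv39h1, an H3K9 methyltransferase, had 19.4, 26.95 and 20.9 FPKM at L2C, against 1.72, 1.39 and 2.06 FPKM at E2C (log2 fold change 3.10 ± 0.30 SE, adjusted p = 6.72e-06). Kmt5a (2.59), the H4K20 monomethyltransferase, Setd1a (2.79) and the H3K4 demethylase Kdm5b (1.96) rose too. Kdm1b (-0.91), Ezh2 (-0.78) and Kdm5a (-0.75) fell.

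Genes of DNA methylation gave 9 higher and 2 lower of 18 (median 0.75, beside 0.58 for all genes). These shares, 50% higher and 11.1% lower, are set against 43.5% and 19.9% of all tested genes, and rest on few genes. Dppa3, which protects the maternal genome from loss of methylation, had 1972, 1925 and 3027 FPKM at L2C, against 12521, 13963 and 14418 FPKM at E2C (log2 fold change -2.59 ± 0.26 SE, adjusted p = 7.53e-06). Even the lowest L2C library held 1925 FPKM of it. Mbd2 (-1.60) also fell. Dnmt1, the maintenance methyltransferase, had 16.6, 23.7 and 37.1 FPKM at L2C, against 11.3, 7.69 and 9.06 FPKM at E2C (log2 fold change 1.32 ± 0.34 SE, adjusted p = 0.00478). Dnmt3b, a de novo enzyme, had 5.45, 6.86 and 7.4 FPKM at L2C, against 1.69, 0.44 and 1.5 FPKM at E2C (log2 fold change 1.82 ± 0.35 SE, adjusted p = 8.28e-04). Tet3, the maternal dioxygenase that oxidises methylcytosine, had 68.04, 51.4 and 30.3 FPKM at L2C, against 26.8, 16.7 and 19.1 FPKM at E2C (log2 fold change 1.17 ± 0.34 SE, adjusted p = 0.00927). Each was higher at L2C without overlap, but the calls of Dnmt1 and Tet3 were lost with the GC trend removed (adjusted p = 0.107 and 0.151) and after quantile normalization (adjusted p = 0.151 and 0.145). The DMSO control libraries of E2C held 45.0 and 85.1 FPKM of Dnmt1 and 92.5 and 103.6 FPKM of Tet3, above every siCon L2C library. Trim28 (2.72), the co-repressor KAP1, and Mbd3 (2.90), of NuRD, rose most in the list.

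Cell cycle genes as a group lay near all tested genes. Of 62 replication genes, 32 were higher and 12 lower (median 0.84), or 28 higher and 7 lower with the GC trend removed. The shares were 51.6% higher and 19.4% lower, against 43.5% and 19.9% of all tested genes. Cdt1, the licensing factor, had 90.3, 96.1 and 134 FPKM at L2C, against 5.66, 6.06 and 5.52 FPKM at E2C (log2 fold change 3.98 ± 0.27 SE, adjusted p = 8.59e-07). Cdk2 had 62.6 to 93.6 FPKM at L2C, against 4.4 to 6.5 FPKM at E2C (3.56), and Ticrr, needed to fire origins, had 77.9 to 119 FPKM at L2C, against 10.8 to 14.2 FPKM at E2C (2.81). Rpa3 (-3.06) and Orc5 (-2.31) fell. Of 67 mitosis genes, 32 were higher and 12 lower (47.8% and 17.9%), and their median of 0.58 was that of all genes. Ube2s, the ubiquitin-conjugating enzyme that extends chains for the anaphase-promoting complex, was among the most abundant risers, with 1356, 1422 and 1459.9 FPKM at L2C, against 58.9, 34.8 and 55.5 FPKM at E2C (log2 fold change 4.84 ± 0.27 SE, adjusted p = 3.21e-07). Espl1, separase, had 55.3 to 86.6 FPKM at L2C, against 4.47 to 7.07 FPKM at E2C (3.48), and Plk1 had 92.5 to 192 FPKM at L2C, against 11.2 to 13.6 FPKM at E2C (3.30). Mad2l1 (-2.56), Pttg1 (-2.17), the securin gene, and Ccnb2 (-1.86) fell.

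Mitochondrial transcripts took a smaller share at L2C. The share of FPKM from the mitochondrial genome was 7.58, 11.2 and 10.4% in the L2C libraries and 13.1, 17.05 and 15.7% in the E2C libraries. Of 15 tested mitochondrial genes, 13 were lower and 0 higher by limma (13 and 0 also at an unadjusted p under 0.05), with a median of -1.30, while 11 were lower after rescaling without mitochondrial and ribosomal RNA. With the GC trend removed 5 were lower and none higher (median -0.16), and after quantile normalization 4 were lower and 1 higher (median -0.26). mt-Nd1 had 3045, 4553 and 4269 FPKM at L2C, against 20827, 19955 and 15957 FPKM at E2C (log2 fold change -2.27 ± 0.26 SE, adjusted p = 1.77e-05). mt-Nd3 had 107, 410.1 and 305 FPKM at L2C, against 2830.2, 3789 and 4870.1 FPKM at E2C (log2 fold change -3.97 ± 0.45 SE, adjusted p = 3.66e-05). mt-Nd5 had 511, 827 and 617 FPKM at L2C, against 2067, 2245 and 2169 FPKM at E2C (log2 fold change -1.76 ± 0.26 SE, adjusted p = 1.24e-04). All 3 encode subunits of complex I, and their groups did not overlap. mt-Nd4l (0.39, adjusted p = 0.622) and mt-Co2 (-0.30, adjusted p = 0.387) were not called. Nuclear copies of mitochondrial DNA can take some of these reads.

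Nuclear genes of oxidative phosphorylation were lower too, with 39 lower and 11 higher of 75 (median -0.86), and 42 lower and 14 higher with the GC trend removed. Ndufa8, of complex I, had 1.39, 1.8 and 0.24 FPKM at L2C, against 25.1, 25.9 and 20.95 FPKM at E2C (log2 fold change -3.62 ± 0.36 SE, adjusted p = 7.68e-06). Ndufs5 had 9.26 to 14.5 FPKM at L2C, against 77.1 to 111 FPKM at E2C (-2.88), and Cox6c (-2.96) and Uqcrb (-2.67) fell. Uqcrfs1, the Rieske protein of complex III, rose, with 63.5, 67.9 and 75.7 FPKM at L2C, against 11.3, 10.3 and 8.98 FPKM at E2C (log2 fold change 2.65 ± 0.26 SE, adjusted p = 6.91e-06), as did Uqcrc1 (3.20) and Cyc1 (3.18), also of complex III. Glycolysis and the TCA cycle gave 25 higher and 8 lower genes of 42 (median 1.06), or 19 higher and 6 lower with the GC trend removed. Pkm, pyruvate kinase, had 255, 299 and 218 FPKM at L2C, against 11.9, 13.3 and 13.5 FPKM at E2C (log2 fold change 4.21 ± 0.26 SE, adjusted p = 4.86e-07). Pgam1, phosphoglycerate mutase, had 115 to 142 FPKM at L2C, against 6.93 to 7.96 FPKM at E2C (3.97), and Pfkl, liver phosphofructokinase, had 15.3 to 17.8 FPKM at L2C, against 0.47 to 0.76 FPKM at E2C (3.41). Lactate dehydrogenase split by isoform, with Ldha higher (4.07) and Ldhb lower (-1.81). The genes that fell included Idh1 (-3.28), Dld (-1.87) and Dlat (-1.57), the last 2 encoding parts of the pyruvate dehydrogenase complex.

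**Figure D5:**
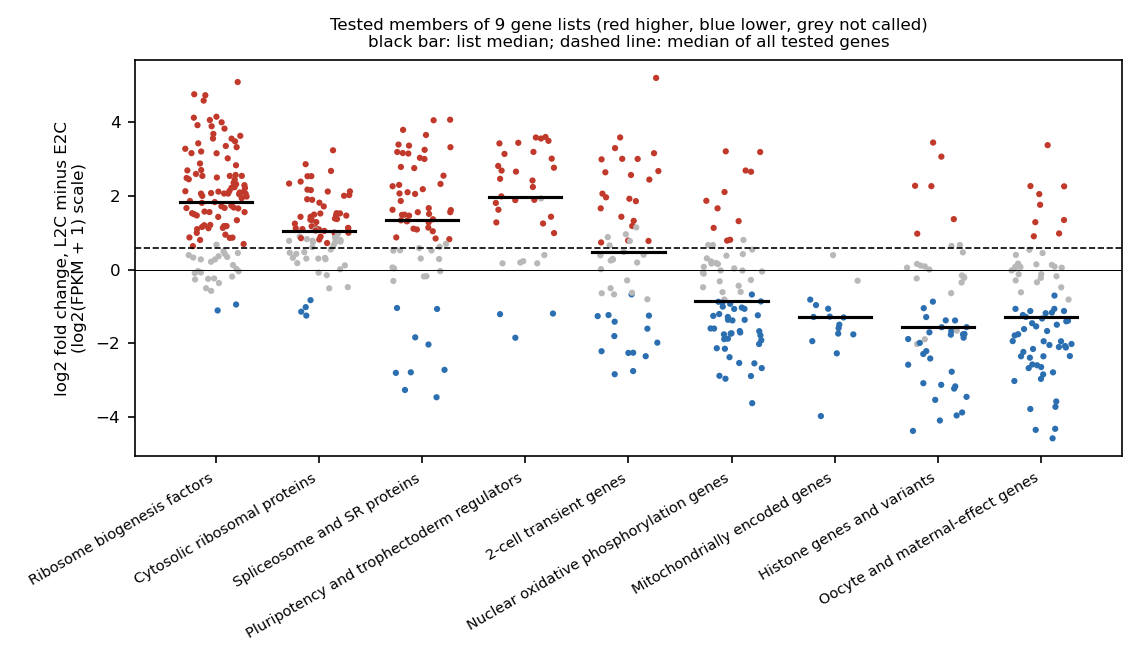
Log2 fold change (siCon L2C over siCon E2C, log2(FPKM + 1) scale) of each tested member of 9 lists, with 1 point per gene, coloured by call, and the list's median as a bar. Medians run from -1.56 for histone genes to 1.95 for pluripotency and trophectoderm regulators, and the dashed line is the median of all tested genes, 0.58.

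Most genes for the uptake of amino acids and the synthesis of lipids rose. All 17 tested amino acid transporter genes but 3 were higher and 0 were lower by limma (14 and 0 also at an unadjusted p under 0.05), with a median of 2.43, although 10 of 27 in the files did not pass the filter. Slc1a5, a glutamine carrier, had 79.8, 67.6 and 109.8 FPKM at L2C, against 1.3, 2.04 and 3.66 FPKM at E2C (log2 fold change 4.73 ± 0.34 SE, adjusted p = 1.00e-06). Slc7a5, the large neutral amino acid carrier LAT1, had 47.2, 29.4 and 30.1 FPKM at L2C, against 0.74, 1.28 and 0.93 FPKM at E2C (log2 fold change 4.18 ± 0.32 SE, adjusted p = 1.45e-06). Slc1a1, a glutamate carrier, had 45.9 to 66.3 FPKM at L2C, against 3.04 to 6.78 FPKM at E2C (3.37). After quantile normalization 13 were higher and 2 lower. Of 32 genes of cholesterol and fatty acid synthesis, 21 were higher and 4 lower (median 1.47). Scd1, the desaturase that makes oleate, had 99.2, 88.7 and 106 FPKM at L2C, against 6.66, 4.82 and 3.58 FPKM at E2C (log2 fold change 4.07 ± 0.29 SE, adjusted p = 9.44e-07). Dhcr7, the last step of cholesterol synthesis, had 50.4 to 64.2 FPKM at L2C, against 3.21 to 5.0 FPKM at E2C (3.59), and Fdps had 50.7 to 87.4 FPKM at L2C, against 9.2 to 13.7 FPKM at E2C (2.56). Their regulator Srebf2 fell (-2.01), together with Idi1 (-2.48), Nsdhl (-1.5) and Sc5d (-1.06).

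Stress-response genes rose beside Ddit4 and Sesn2. Of 22 tested genes of the ATF4 response, 16 were higher and 1 lower (Cth, -3.37), with a median of 1.5 beside 0.58 for all genes. These shares, 72.7% higher and 4.55% lower, are set against 43.5% and 19.9% of all tested genes. With the GC trend removed 13 were higher and 1 lower, with a median of 1.03 beside 0.60 for all genes. Trib3, a feedback inhibitor of that response, had 53.4, 56.8 and 82.1 FPKM at L2C, against 1.8, 1.8 and 1.52 FPKM at E2C (log2 fold change 4.56 ± 0.30 SE, adjusted p = 6.82e-07). Ppp1r15a (3.80), Psat1 (2.84) and Phgdh (2.64) rose. Of 26 p53 target genes, 16 were higher and 3 lower (median 1.38). Their list summed to less at L2C, at 2393 to 2867 FPKM, against 3704 to 4509 FPKM at E2C. Gadd45a, a growth arrest gene, had 164, 162 and 230.4 FPKM at L2C, against 6.41, 8.4 and 6.54 FPKM at E2C (log2 fold change 4.51 ± 0.27 SE, adjusted p = 4.68e-07). Ei24, which encodes a protein of the endoplasmic reticulum, had 197 to 352 FPKM at L2C, against 8.64 to 13.5 FPKM at E2C (4.32). Cdkn1a, the p21 gene and a standard p53 target, was not called (-0.17, adjusted p = 0.706). Sesn2 belongs to both lists.

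Regulators of the first lineages were present at L2C. Of 34 tested, 25 were higher and 3 lower (Gata3, -1.85, Sall4, -1.21, and Id2, -1.19), with a median of 1.95, and 9 of 43 did not pass the filter. Pou5f1, which encodes OCT4, had 449, 405 and 222 FPKM at L2C, against 30.3, 27.9 and 24.9 FPKM at E2C (log2 fold change 3.59 ± 0.31 SE, adjusted p = 2.70e-06). Tead4 (3.42) and Yap1 (3.0), which act in trophectoderm, Lin28a (3.58) and Gata4 (3.49) rose as well. Epithelial genes gave 18 higher and 1 lower of 30 (Prkci, -1.0), with a median of 1.32. Cldn6, a tight junction protein, had 79.96, 115 and 76.4 FPKM at L2C, against 5.39, 2.67 and 6.69 FPKM at E2C (log2 fold change 3.99 ± 0.34 SE, adjusted p = 2.43e-06). F11r, the adhesion molecule JAM-A, had 49.2 to 65.2 FPKM at L2C, against 3.08 to 4.48 FPKM at E2C (3.68), and Jup, plakoglobin, had 15.4 to 31.1 FPKM at L2C, against 0.73 to 1.39 FPKM at E2C (3.68). Cdh1 (2.49), E-cadherin, rose alongside its repressor Snai1.

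Marker lists of maternal, blood and sperm cells had few members above the filter. Of 24 cumulus and granulosa markers, 4 were tested, and the list summed to 105 to 149.9 FPKM at L2C and 10.97 to 17.3 FPKM at E2C. That sum was mostly Amhr2, at 104, 91.8 and 145 FPKM at L2C, against 4.78, 3.89 and 4.28 FPKM at E2C, while Has2 and Ptx3, which define cumulus cells, were near 0. Of 20 sperm and testis markers, 6 were tested and 4 were lower, with sums of 60.4 to 108 FPKM at L2C and 93.8 to 131 FPKM at E2C. Prm2, a protamine gene, had 3.15, 5.12 and 4.44 FPKM at L2C, against 30.2, 69.7 and 40.2 FPKM at E2C (log2 fold change -3.12 ± 0.35 SE, adjusted p = 1.69e-05), Acrv1 fell (-2.05), Smcp was listed at 0 in all L2C libraries with 2.42, 6.4 and 1.91 FPKM at E2C, and Acr was at 0 in all 6 libraries. Blood markers summed to 146 to 168 FPKM at L2C and 71.4 to 88.8 FPKM at E2C, with Hba-a1 at 70.9, 104 and 104 FPKM at L2C, against 26.5, 27.4 and 37.2 FPKM at E2C (1.58), Cd74 higher (2.76) and Lyz2 lower (-1.09). Of 15 oviduct and uterine markers, 3 were tested and 2 were higher, with sums of 10.5 to 44.8 FPKM at L2C and 2.09 to 4.49 FPKM at E2C and Pax8 at 0. The calls of Hba-a1 (adjusted p = 0.131) and Lyz2 (adjusted p = 0.099) were lost with the GC trend removed. The part of these markers in the results above was not tested.

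By limits on level, 307 genes (230 protein-coding) went on, with at least 5 FPKM in every siCon L2C library and under 1 FPKM in every siCon E2C library. Of these, 50 were listed at 0 in all E2C libraries. Ddit4, Prmt1, Impdh1, Socs3 and Ppp1r37 were among the 307. The limits were not applied to the DMSO control libraries of E2C, which held 8.9 and 8.19 FPKM of Ddit4 and 0.27 and 0.65 FPKM of Socs3. Only 64 genes (20 protein-coding) met the reverse limits, Hist1h3f and Casp8 among them. With a limit of 10 FPKM the numbers were 113 and 23. Gene types differed in direction. Of 12186 protein-coding genes, 46.9% were higher and 17.5% lower. Of 818 lincRNA genes, 119 were higher and 385 lower, with a median of -0.77. Processed pseudogenes followed coding genes, with 540 higher and 145 lower of 1121, and reads of their parents can map to them. Long noncoding RNAs made up 5.02% of the genes at least 2-fold higher, 22.8% of those at least 2-fold lower and 11.1% of those tested.

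Rising genes lay unevenly along the genome. On chromosome 11, 59.2% of the tested protein-coding genes were higher, on chromosome 7 56.8%, on chromosome 15 56.1% and on chromosome 8 55.7%. On chromosome 13 28.9% were higher and 30.6% lower. The longest run of neighbouring tested protein-coding genes that were all higher held 23 genes at chr7:44748413-45160065 (GRCm38). It runs from Vrk3 to Pih1d1 and includes Prmt1, Nup62, Med25 and Rpl13a. The GC content of genes was not separated from their position, either for this run or for the chromosome shares.

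The siEchs1 arm shares none of these libraries and allows the same stage comparison. There, 519 genes (3.32%) were called, 469 higher and 50 lower at L2C, and without the third E2C library of that arm 2660 were called. Of the 9911 genes called in siCon embryos, 77.6% had the same sign in siEchs1 embryos, with or without a call there, and 83.8% did so without that library. Over all tested genes the share was 70.2%, and 74.95% without that library. Of the genes higher in siCon embryos 81.8% were positive in siEchs1 embryos, against 61.7% of all tested genes. Of the genes lower in siCon embryos 67.8% were negative, against 37.9% of all tested genes. The difference between the stage changes, siCon minus siEchs1, was itself significant for 3260 genes (20.9%), or 4261 without that library. Ddit4 rose in both arms, by 6.67 in siCon and 5.88 in siEchs1 (adjusted p of the difference = 0.394). Cidea rose by 5.71 in siCon and changed by 0.11 in siEchs1 (adjusted p of the difference = 2.52e-04), where it was at 0.11, 0.14 and 0.04 FPKM at L2C. Obox5 fell by 4.91 in siCon and by 2.37 in siEchs1 (adjusted p of the difference = 0.00306). Mitochondrial shares also differed between the arms, at 0.831 to 2.27% in siEchs1 L2C libraries and 1.69, 2.82 and 10.3% in siEchs1 E2C libraries. The oocyte list, summed, came to 73898 to 82107 FPKM in siEchs1 L2C libraries and 107732, 109353 and 78122 FPKM in siEchs1 E2C libraries, so the third E2C library of that arm stood apart in both measures. Their part in these differences was not tested.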

How the data were processed

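Smart-seq2 libraries of tubes of 5 to 10 mouse embryos were sequenced as paired 150 nt reads, per the labels' protocols. The submitters' processing notes name cutadapt 1.16, STAR and mm10; of the STAR version, the FPKM program and its annotation nothing is given in the sources used here. What the authors deposited is FPKM, 1 file per library with 55335 genes each, scaled by exon length and by mapped fragments. The files hold no counts and keep no strand, so depth is unknown, and reads of near-identical copies (Obox, Zscan4, Tdpoz, Usp17l, histone and ribosomal protein genes, mitochondrial copies) and of overlapping or antisense genes cannot be told apart. Counts could not be recovered: at the best of many trial depths, 34.7 to 40.2% of low values lay within 0.15 of a whole fragment. By chance 30.0% would do so at a single depth fixed beforehand, and more at the best of many.

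Groups came from the sample titles. Repeated symbols (107, in 216 entries) and 27 entries turned into dates were left out, and 54923 of 55098 genes matched GENCODE M21 (GRCm38) for gene type and position. The design foresaw counts or FPKM, and the FPKM branch was used. Genes that reached 1 FPKM in 3 or more of the 6 siCon libraries were tested on log2(FPKM + 1) with limma-trend and robust variance (limma 3.58.1, R 4.3.3, two-sided), without covariates, with p adjusted by Benjamini-Hochberg over all 15610 genes and a threshold of 0.05. The method was tested on simulated data. The siEchs1 arm was fitted alone, and the difference of stage changes in all 12 siRNA libraries. Gene lists (32) are described by counts and medians, with no test. Alternatives were another pseudocount (0.1), other filters, quantile normalization, rescaling without mitochondrial and ribosomal RNA, no variance trend, all 12 libraries, a replicate block and leaving out each library. Rescaling to the same FPKM total and removing each library's loess trend with transcript GC content were chosen after seeing the data.

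The comparison, the lists and the tests were chosen with earlier results of these data known. Genes named are the 10 largest changes per direction (protein-coding, at least 5 FPKM in the higher group, no overlap), up to 3 called members per list (smallest adjusted p), and genes set in the design. Other list members named with a fold change were chosen after their values were seen. Promoters are from RefSeq, matched by symbol. Titles and file headers disagreed on replicates 2 and 3 of siEchs1 L2C, and the titles were used.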

Additional observations from a re-analysis of the deposited data

Results flagged for a closer look

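The stage change of siCon embryos differed from that of siEchs1 embryos for 3260 genes by the test of the difference itself (limma, siCon minus siEchs1, all 12 siRNA libraries), or 4261 genes without the third siEchs1 E2C library. Among the 20 genes with the largest changes in siCon embryos, 17 were in this group, against 20.9% of all tested genes. These 20 were chosen by their siCon change, which enters the difference itself, so their number and signs are a description and support nothing. Each is given with its log2 fold change of L2C over E2C, first in siCon and then in siEchs1 embryos. Of the genes that rose in siCon embryos, the difference was positive for Prmt1 (6.04 and 3.91, difference 2.13, adjusted p = 0.0312), Sesn2 (5.92 and 1.93, difference 3.99, adjusted p = 0.00432), Ppp1r37 (5.76 and 4.18, difference 1.58, adjusted p = 0.0485) and Snai1 (5.73 and 1.77, difference 3.96, adjusted p = 0.0016). It was positive too for Socs3 (5.72 and 2.94, difference 2.79, adjusted p = 0.00306), Cidea (5.71 and 0.11, difference 5.61, adjusted p = 2.52e-04), Impdh1 (5.71 and 1.30, difference 4.42, adjusted p = 0.00513) and Mta2 (5.60 and 1.69, difference 3.91, adjusted p = 0.00936). Impdh1 and Mta2 held 5.07 and 5.01 FPKM in the third siEchs1 E2C library, against 0.39 to 1.38 FPKM in the other siEchs1 E2C libraries.

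Of the genes that fell in siCon embryos, the difference was negative for Dph6 (-6.08 and -0.09, difference -5.98, adjusted p = 0.0339), Obox5 (-4.91 and -2.37, difference -2.53, adjusted p = 0.00306), Sec61g (-4.84 and -0.05, difference -4.79, adjusted p = 2.93e-04), Obox1 (-4.65 and -1.49, difference -3.16, adjusted p = 0.00539) and Apoo (-4.60 and -0.97, difference -3.63, adjusted p = 0.00101). It was negative too for Ifitm6 (-4.58 and -0.95, difference -3.63, adjusted p = 0.00333), Oosp3 (-4.57 and -1.43, difference -3.14, adjusted p = 0.00502), Obox7 (-4.57 and -2.23, difference -2.35, adjusted p = 0.0374) and Hist1h4a (-4.37 and -1.61, difference -2.76, adjusted p = 0.00936). Sec61g had 93.1, 107.5 and 83.8 FPKM in siEchs1 L2C libraries and 156.8, 108 and 54.3 FPKM in siEchs1 E2C libraries. Dph6 was uneven in both arms. Without the third siEchs1 E2C library the difference kept its sign for all 17 genes, Ppp1r37 lost its call (adjusted p = 0.0537), and Rac3 (adjusted p = 0.0428, against 0.0646 with it) and Obox2 (adjusted p = 0.0092, against 0.0864 with it) gained one, which made 18 of the 20. The mitochondrial share was 13.1 to 17.05% in siCon E2C libraries and 1.69, 2.82 and 10.3% in siEchs1 E2C libraries. Some oocyte genes stood far apart between the arms. Zp3 had 44.8 to 93.7 FPKM in siCon L2C and 27.99 to 36.7 FPKM in siCon E2C libraries, against 4409, 3189 and 2631 FPKM in siEchs1 L2C and 3071, 3622 and 35.9 FPKM in siEchs1 E2C libraries. Mos had 4.03 to 6.26 and 4.8 to 5.96 FPKM in siCon L2C and E2C libraries, against 683, 589 and 673 FPKM in siEchs1 L2C and 676, 808 and 7.7 FPKM in siEchs1 E2C libraries. Gdf9 had 188 to 236 and 179 to 207 FPKM in siCon L2C and E2C libraries, against 5704, 3861 and 3702 FPKM in siEchs1 L2C and 1627, 3903 and 292 FPKM in siEchs1 E2C libraries. The third siEchs1 E2C library thus held levels near those of siCon embryos for these 3 genes. Summed over the 80 oocyte genes of the list found in the files, siCon libraries held 36190 to 49234 FPKM at L2C and 132999 to 144762 FPKM at E2C, and siEchs1 libraries 73898 to 82107 FPKM at L2C and 78122 to 109353 FPKM at E2C. The part of these measures in the differences was not tested.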

How the results depend on the processing

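Calls in siCon L2C against E2C ranged from 6874 of 9975 genes with a mean of at least 5 FPKM to 10290 after rescaling to the same FPKM total. They came to 9664 with a pseudocount of 0.1, 9454 of 34928 with no filter, 9879 without the variance trend, 8635 with all 12 siRNA libraries, and 8759 to 9967 with 1 library left out. The replicate numbers did not pair the tubes (correlations of same-numbered deviations 0.086, -0.099 and -0.036); with the replicate block 9795 genes were called (6731 higher, 3064 lower). Stricter limits left 113 genes on and 23 off. Without replicate 3 of siEchs1 E2C, 2660 genes were called in that arm; the cause was not tested. Zscan4d was -0.67 and became 0.10 with the GC trend removed (adjusted p = 0.765). Calls were also lost for Dnmt1, Eif1ax, Hba-a1, Hdac3, Lyz2, Obox6, Tet3, Usp17le, Zp3 and Zscan4c under at least 1 alternative. Of the 28 lists with at least 15 tested genes, all but the proteasome kept their majority direction in all 16 alternatives. The depth of these libraries is unknown, and 3 tubes per stage limit the precision.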

Other observations

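Among the most abundant transcripts at both stages were those of the mitochondrial genome and of a few oocyte genes. Omt2b, an oocyte gene with a near-identical copy, had 9003, 9623 and 9048 FPKM at L2C, against 34093, 35365 and 36605 FPKM at E2C in the siCon libraries. Small noncoding RNAs also changed, although an oligo-dT library of full-length cDNA is not made to count them: of 70 tested snoRNA genes 14 were higher and 22 lower at L2C. The first principal component of the 6 siCon libraries held 82.6% of the variance and separated the stages. The second held 7.2%, with the third L2C library at -61.45 and the other L2C libraries at 38.22 and 27.03.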
